A study of Arabidopsis thaliana with 9 samples.

Results

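Of the 22746 gene probe sets measured in Arabidopsis thaliana anthers, 14 were higher in both tapetal mutants, dyt1 and ams, than in wild type. They were chosen by their values: the lowest of the 6 mutant values had to lie at least 0.5 log2 above the highest of the 3 wild-type values, and the ranges of dyt1 and ams had to overlap. Cytochrome P450 and UDP-glycosyltransferase names, SWEET genes, plastid genes and 4 single genes were left out, which removed 1 of 15 probe sets, that of UGT71B1. The annotation of the array named 9 of the 14 and did not name the other 5, which are given by their probe set numbers. Because the mutant and wild-type values chose these probe sets, their sizes are a description, and no p-value is given for any of them.

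Expression was measured on Affymetrix arrays in anthers dissected at stages 4 to 7 from young buds of plants 3 to 4 weeks old. The groups were dyt1 mutants, ams mutants and wild type of the Columbia accession, with 3 arrays each that the labels call biological replicates. The labels do not give the dyt1 and ams alleles or the accession in which they were carried, nor how many plants gave each sample. A value is the log2 expression of a probe set, so a difference of 1 is a doubling. Values made by RMA understate the change of dim probe sets. A group mean at or under 4.77, the highest lower quartile of the 9 arrays, is not told from background here.

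The tapetum is the innermost layer of the anther wall and feeds the developing pollen with sugars, lipids, wall material and enzymes. DYT1 and AMS are bHLH transcription factors of this layer, and DYT1 acts upstream of AMS. Plants that lack either of them form an abnormal tapetum and are male sterile, and both factors are best known for the genes that need them for expression. The genes described here run the other way, with more signal when either factor is mutated.

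The arrays were not alike in RNA composition, and the division ran through dyt1 and wild type. The signal of the control for 25S ribosomal RNA was 7.42 and 6.20 in dyt1 1 and 3 and 5.51 and 9.59 in wild type 1 and 2, but 11.50 in dyt1 2, 11.59 to 12.42 in the ams arrays and 12.45 in wild type 3, so that 11 divides low from high arrays. The 3 prime minus 5 prime signal of actin, which grows as RNA is degraded or shortened, followed this division in 1 pair of control probe sets, at 1.04 to 1.38 in the arrays of low 25S signal and at 2.103 to 2.92 in those of high signal. In a second actin pair it did not. There it was 3.61 to 3.88 in dyt1 and 3.65 to 4.13 in ams, against 2.45, 2.64 and 4.06 in wild type 1, 2 and 3. All 6 mutant arrays thus stood above wild type 1 and 2 in this pair, as they do for the members. Wild type 3 lay within the mutant range in this pair, whereas for the members it lies below all 6 by choice. The part of this actin signal in the members' levels was not tested. The array medians were 6.88 to 6.91 in dyt1 and 6.87 to 6.94 in ams, against 6.74, 6.75 and 6.88 in wild type. The mutant arrays were thus slightly brighter at the median than wild type 1 and 2.

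Of the named members, 2A6, AT5G10830, AT4G39230 and AT1G44790 belong to enzyme families, by textbook knowledge of their proteins. The most separated of them was 2A6 (AT1G03410), a member of the oxygenase superfamily that uses 2-oxoglutarate and iron. Its probe set stood at 8.33, 9.16 and 8.39 in dyt1 anthers and at 8.35, 8.56 and 8.55 in ams anthers, against 7.47, 7.13 and 6.47 in wild type. The ranges of the 2 mutants overlapped, dyt1 2 was the highest array and wild type 3 the lowest, and 0.86 log2 separated the mutants from wild type. The mean was higher by 1.60 in dyt1 (SE 0.29, 3.04-fold) and by 1.46 in ams (SE 0.29, 2.75-fold, n = 3 per group).

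AT5G10830 encodes a protein of the S-adenosylmethionine-dependent methyltransferase superfamily. It had values of 8.64, 7.71 and 8.23 in dyt1 and of 8.19, 8.29 and 7.94 in ams, against 6.98, 6.98 and 6.76 in wild type. Here dyt1 2 was the lowest mutant array, the reverse of its place for 2A6. The difference from wild type was 1.28 in dyt1 and 1.23 in ams (SE 0.23 each), or 2.43-fold and 2.35-fold.

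AT4G39230 is related to isoflavone reductases, enzymes of phenylpropanoid metabolism. Its values were 7.55, 7.12 and 7.43 in dyt1 and 7.35, 7.47 and 7.16 in ams, against 6.46, 6.40 and 6.52 in wild type. Wild type was tightly grouped (6.46 ± 0.06, SD, n = 3), and the 2 mutants lay almost level at 7.37 ± 0.22 in dyt1 and 7.33 ± 0.16 in ams. The changes were below 2-fold, with 1.87-fold in dyt1 and 1.82-fold in ams.

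AT1G44790 belongs to the ChaC-like family, whose members break down glutathione and related gamma-glutamyl peptides. It had 8.25, 8.40 and 8.34 in dyt1 and 8.31, 8.81 and 8.54 in ams, against 7.53, 7.61 and 7.72 in wild type. Its difference of 0.71 in dyt1 was the smallest of the 14 members there, and in ams it was 0.93. The dyt1 arrays varied little for this gene (SD 0.08), while ams 2 stood above every other array.

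The other named members are a kinase, a pair of genes from families of small secreted or lipid-binding proteins, a gene with no role given here and a pseudogene. AT1G78940, a protein kinase with an adenine nucleotide hydrolase-like domain, had 6.26, 6.14 and 5.78 in dyt1 and 6.16, 5.82 and 5.82 in ams, against 4.60, 4.90 and 5.07 in wild type. Wild type averaged 4.86 ± 0.23, only just above the level taken as background. The difference was 1.21 in dyt1 and 1.08 in ams, and folds at this level may be understated.

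AT4G23680 belongs to a family of lipid-binding proteins that includes the major latex proteins. It spanned a wide range, with 8.97, 7.68 and 8.70 in dyt1 and 8.66, 9.92 and 7.66 in ams, against 6.17, 7.02 and 5.999 in wild type. Its mean differences of 2.06 in dyt1 and 2.35 in ams were among the largest (4.16-fold and 5.10-fold). They also had, with 257641_s_at, the largest standard errors of the 14 (0.57), and ams 2 and ams 3 were more than 2 log2 units apart.

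AT3G10080, a cupin of the family that includes germin-like proteins, had 7.11, 7.53 and 7.42 in dyt1 and 7.29, 8.17 and 7.08 in ams, against 6.55, 6.48 and 6.17 in wild type. Apart from ams 2, its mutant arrays stayed within a narrow band. AT5G06265 had 7.50, 8.33 and 7.50 in dyt1 and 7.80, 8.23 and 8.22 in ams, against 6.32, 6.94 and 6.49 in wild type. In dyt1 its elevation was greatest in array 2, as it was for 2A6.

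AT1G35612, which RefSeq annotates as a pseudogene, was the most separated of all members, with a distance of 0.98 log2 between the mutant and wild-type values. It had 6.69, 7.56 and 6.68 in dyt1 and 6.90, 7.76 and 7.34 in ams, against 5.71, 5.24 and 4.67 in wild type. The difference was 1.77 in dyt1 and 2.13 in ams (SE 0.35 each). Pseudogenes made up 6.95% of the 13286 genes on the array that matched RefSeq, and 1 of the 9 named members was one.

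**Figure D1:**
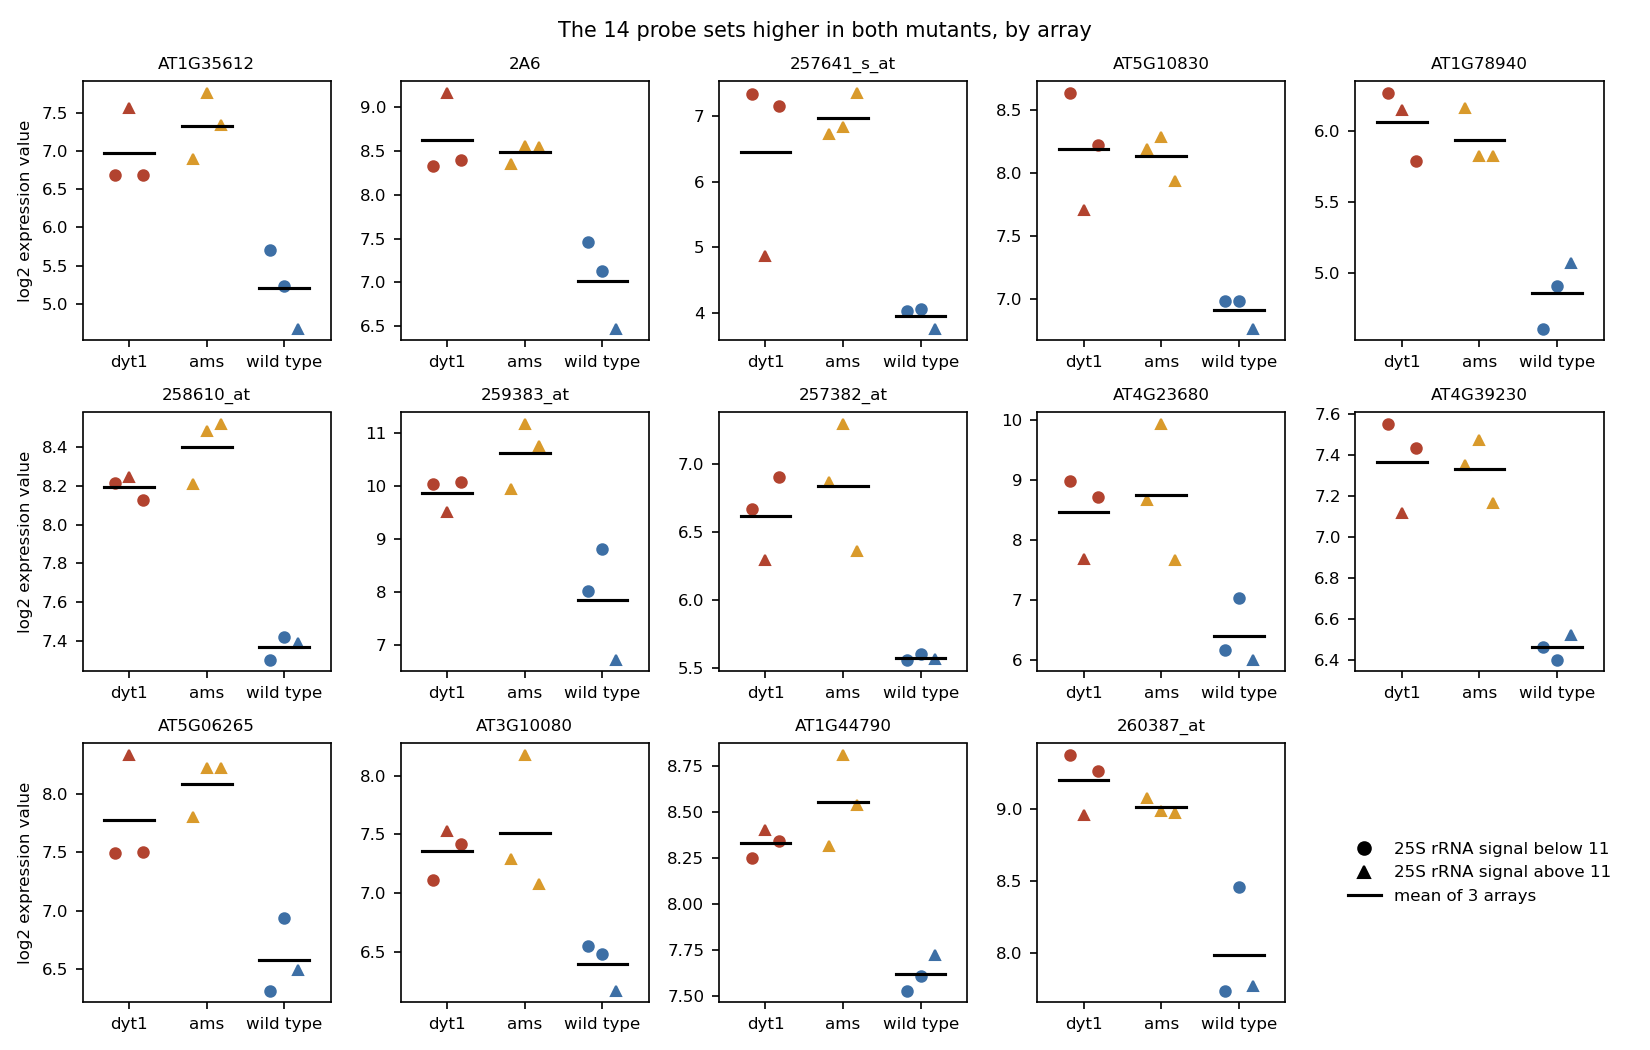
Log2 expression values of the 14 probe sets higher in both mutants, with dyt1, ams and wild type along each horizontal axis and the log2 value on a vertical axis scaled per panel; points are arrays, triangles mark arrays with a 25S ribosomal RNA signal above 11 and bars are means of 3 arrays. All 6 mutant points lie above the 3 wild-type points in each panel, as the choice of probe sets requires, and ams 2, the middle ams point, is the top ams array in 10 of the 14.

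The 5 unnamed probe sets included the members with the largest differences and the highest signals. Probe set 257641_s_at, whose suffix marks a probe set that can read several transcripts, had 7.33, 4.86 and 7.14 in dyt1 and 6.73, 6.83 and 7.34 in ams, against 4.04, 4.07 and 3.77 in wild type. It was the only member whose wild-type mean (3.96) could not be told from background, so its differences of 2.49 and 3.01 are differences of signal and no fold is given. In dyt1 it rested on arrays 1 and 3, since dyt1 2 was itself near the background level.

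Probe set 259383_at had the highest mutant levels, with 10.03, 9.51 and 10.07 in dyt1 and 9.94, 11.16 and 10.76 in ams, against 8.02, 8.81 and 6.73 in wild type. Its wild-type SD of 1.05 was the largest of the members. Its means were 4.04-fold higher in dyt1 and 6.79-fold higher in ams.

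The remaining unnamed members had more modest differences. Probe set 258610_at had 8.21, 8.25 and 8.13 in dyt1 and 8.21, 8.48 and 8.52 in ams, against 7.30, 7.42 and 7.39 in wild type, with SDs of 0.06 in dyt1 and in wild type. Probe set 257382_at averaged 6.62 ± 0.31 in dyt1 and 6.84 ± 0.47 in ams, against 5.58 ± 0.02 in wild type. The last member, 260387_at, averaged 9.20 ± 0.21 in dyt1 and 9.01 ± 0.06 in ams, against 7.99 ± 0.41 in wild type. All 3 were about 2-fold higher in the mutants, between 1.77-fold for 258610_at in dyt1 and 2.41-fold for 257382_at in ams.

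Over the 14 members, the difference from wild type had a median of 1.21 in dyt1 (range 0.71 to 2.49) and of 1.25 in ams (range 0.87 to 3.01), beside medians over all probe sets of 0.05 in dyt1 and -0.05 in ams. Both comparisons use the same 3 wild-type arrays. Differences of at least 1 log2 were found for 10 members in dyt1 and for 12 in ams. Both counts include 257641_s_at, whose wild-type mean could not be told from background. Over all probe sets such differences were not counted, and the required distance favours large ones. In wild type the members were of middling signal, with mean levels of 3.96 to 7.99 and a median at the 46.8th percentile of all probe sets.

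Limma's moderated test, fitted over all 22746 probe sets and called at a Benjamini-Hochberg adjusted p under 0.05, called 0 of the 14 members in dyt1 against wild type, where 0.0747% of all probe sets were called higher. In ams against wild type it called 12 of 14, with AT4G23680 and AT3G10080 not called, where 2.45% of all probe sets were called higher. These contrasts chose the members, so the counts show only how the model reads them: at an unadjusted p under 0.05 all 14 were higher in dyt1, as were 8.39% of all probe sets. Without dyt1 2 the count in dyt1 was 8, and without wild type 3 it was 4. In ams it was 4, 1 and 3 without ams 1, 2 or 3, and 2 and 4 without wild type 1 or 2. With the replicate number as a block it was 7 in ams. Among all probe sets, 10.2% had all 3 dyt1 values above the wild-type values, 13.1% had all 3 ams values above them, and 3.09% had all 6 above, as the 14 members have by choice.

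The 2 mutants did not separate from each other for these genes, which the required overlap of their ranges favoured. The difference of dyt1 minus ams had a median of -0.21 and ran from -0.75 for 259383_at to 0.19 for 260387_at. Members with the higher mean in ams numbered 9, and those with the higher mean in dyt1 numbered 5. Limma called 0 of the 14 in dyt1 against ams, where 4.87% of all probe sets were called in either direction. At an unadjusted p under 0.05 the count was 0 of 14, where 22.3% of all probe sets passed. The sign of the median rested on 1 array: without ams 2 it was 0.04. For ams 2, 10 of 14 members were highest among the ams arrays (71.4%), against 36.5% of all probe sets. Among the wild-type arrays, wild type 2 was the highest for 8 members (57.1%), against 29.3% of all probe sets.

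**Figure D2:**
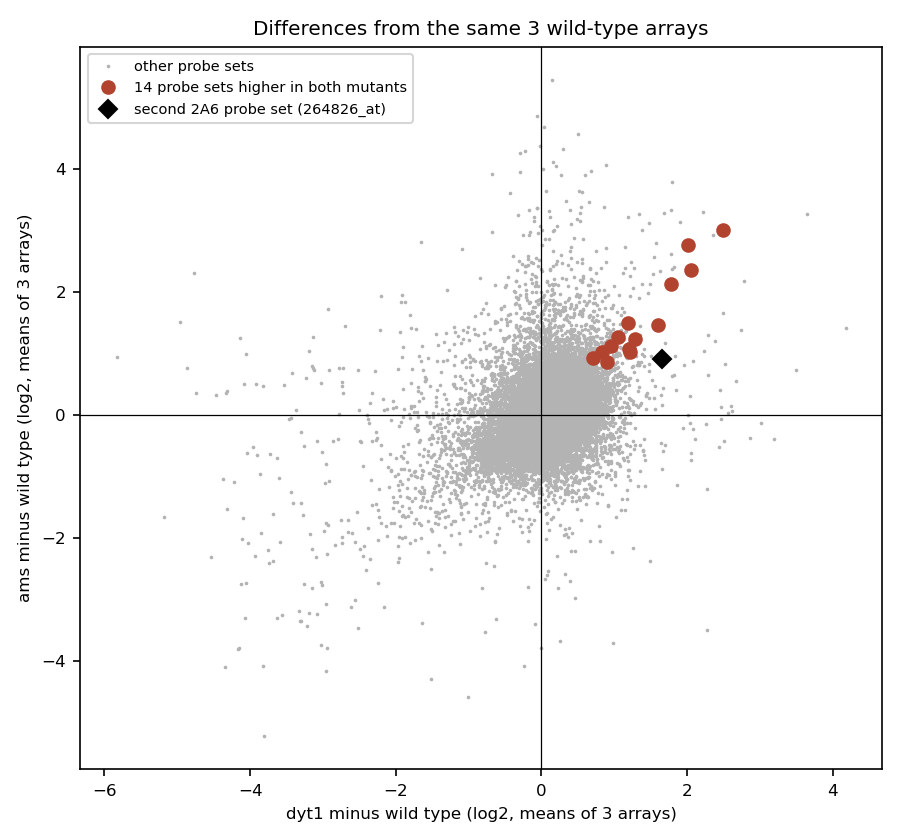
Mean log2 difference from wild type in dyt1 (horizontal axis) and in ams (vertical axis) for all 22746 probe sets, with the 14 members as red circles and the second probe set of 2A6 as a black diamond. The members lie along the diagonal between 0.71 and 2.49 in dyt1 and between 0.87 and 3.01 in ams. The required overlap of the dyt1 and ams ranges keeps them near it. Both axes also share the wild-type arrays, so the diagonal is partly common to them.

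The elevation in dyt1 was present on both sides of the division by 25S signal, which the choice of members fixes, but its size differed between members. In the arrays of low 25S signal, dyt1 1 and 3 exceeded wild type 1 and 2 by a median of 1.21 (range 0.73 to 3.18). In those of high signal, dyt1 2 exceeded wild type 3 by a median of 1.15 (range 0.60 to 2.89), from a single array each. AT1G35612 differed by 1.22 in the low arrays and by 2.89 in the high ones, and 2A6 by 1.06 and 2.68. Probe set 257641_s_at was opposite, with 3.18 in the low arrays and 1.10 in the high ones. All 3 ams arrays had high 25S signal, and against wild type 3 alone the members were higher by a median of 1.36 (range 0.81 to 3.88). The part of RNA composition in these sizes was not tested.

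**Figure D3:**
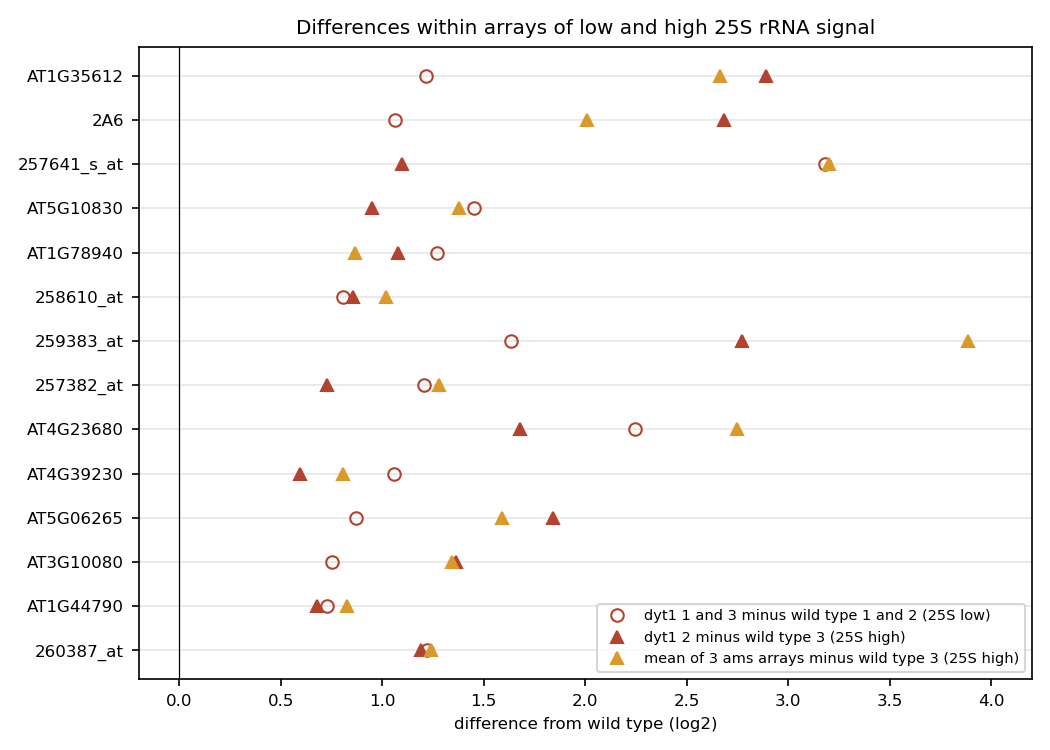
Log2 difference from wild type for each of the 14 members (vertical axis) within arrays of low 25S ribosomal RNA signal (open circles, 2 dyt1 and 2 wild-type arrays) and of high signal (triangles; red is dyt1 2 minus wild type 3, orange is the mean of 3 ams arrays minus wild type 3). Every difference is above 0, from 0.60 for AT4G39230 in dyt1 2 to 3.88 for 259383_at in ams.

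The members sat close to the threshold, and genes higher in both mutants were fewer than genes lower in both. Before names were left out, 15 probe sets met the rule (0.0659% of all), whereas 64 met the same rule turned round, with all mutant values at least 0.5 log2 below wild type. At a distance of 0.25 the counts were 84 higher and 161 lower, at 0.75 they were 3 and 39, and at 1 they were 0 and 24. Scaling moved the numbers: with each array centred on its median 11 were higher and 87 lower, and with a further quantile normalization 9 and 68. The count of lower probe sets was not repeated with single arrays left out, so its excess over the higher ones may rest on them.

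The named members just inside the threshold were AT1G44790 and AT3G10080 with distances of 0.53, AT5G06265 with 0.56 and AT4G39230 with 0.60. Just outside lay AT1G21540 with 0.48, AT3G10310 with 0.47, AT5G09300 with 0.45 and AT1G31940 with 0.45. Centring each array on its median took AT5G06265, AT3G10080, AT1G44790 and 260387_at below 0.5 and left the other 10. A further 6 probe sets passed the distance but had dyt1 and ams ranges apart: 5 were higher in ams than in dyt1, among them MTP11, a manganese transporter named after its values were seen, and 1 was the second 2A6 probe set.

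How many probe sets qualified depended on single arrays. The rule found 154 without wild type 3, 74 without dyt1 2, 42 without wild type 2 and 23 without ams 3, and 306 without both wild type 3 and dyt1 2. Leaving out an array can only keep or widen the distance of a member, so a member can be lost only where the dyt1 and ams ranges no longer overlap. That happened to 6 of the 14, in 1 of the 9 omissions each.

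**Figure D4:**
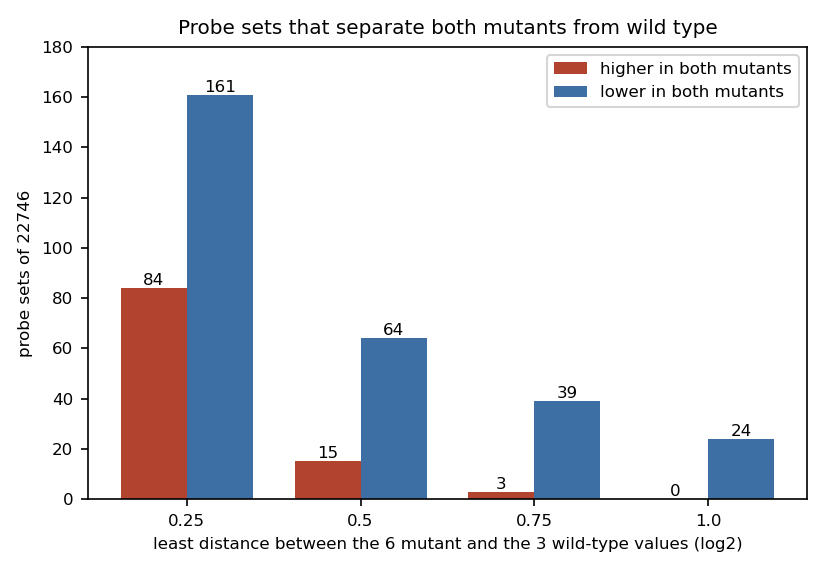
Number of probe sets, of 22746, whose 6 mutant values all lie above (red) or all below (blue) the 3 wild-type values by at least the log2 distance on the horizontal axis, with dyt1 and ams ranges overlapping. At 0.5 log2 there are 15 higher and 64 lower, and at 1 log2 there are 0 higher and 24 lower.

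A second probe set read 2A6 and was not a member. This probe set, 264826_at, had 6.26, 6.88 and 6.41 in dyt1 and 5.83, 5.47 and 5.998 in ams, against 4.95, 4.85 and 4.79 in wild type. All mutant values were again above wild type, by 0.52, and dyt1 2 was again the highest array. Its mean was 1.66 above wild type in dyt1 and 0.91 above in ams, without overlap of the 2 mutants. The wild-type mean of 264826_at, 4.86, was only just above the level taken as background, so these differences may be understated. Limma called 264826_at higher in both mutants, where 0.0747% of all probe sets were called higher in dyt1 and 2.45% in ams. Whether these calls hold with an array left out was not tested. The first probe set also had the higher mean in dyt1, by 0.14, with overlapping ranges. Both probe sets were hybridised with the same RNA, so they repeat the measurement of the gene but not of the genotype.

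The genes next to the members were described as well, since the rule did not use them. The neighbours were the nearest protein-coding genes on either side of each named member in the RefSeq order of the TAIR10.1 assembly. Of these 18, 11 had a named probe set. None of the 11 met the distance of 0.5, as few probe sets do. Their median difference was 0.23 in dyt1 and 0.24 in ams, beside 0.05 and -0.05 over all probe sets. Limma called 0 in dyt1 (3 at an unadjusted p under 0.05) and 1 in ams, where it was higher. Over all 22746 probe sets, 3300 had an unadjusted p under 0.05 in dyt1, in either direction, and 2.45% were called higher in ams. With 11 neighbours, such counts say little about the neighbourhood of the members. AT4G23670, which precedes AT4G23680 and belongs to the same protein family, had 9.68, 8.61 and 9.71 in dyt1 and 8.76, 9.37 and 7.82 in ams, against 8.26, 8.58 and 7.80 in wild type. Its ams values overlapped those of wild type, and neither difference was called (1.12 in dyt1, adjusted p = 0.291, and 0.44 in ams, adjusted p = 0.594).

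AT5G06260, whose annotated span overlaps that of AT5G06265, was the neighbour called in ams. It averaged 9.68 ± 0.06 in ams and 8.83 ± 0.31 in wild type, a difference of 0.85 (n = 3 per group, limma adjusted p = 0.0350). The call did not hold in 7 of the 9 omissions of a single array: leaving out dyt1 1 or 3 gave an adjusted p of 0.0573 or 0.0690, leaving out ams 1, 2 or 3 gave 0.112, 0.137 or 0.101, and leaving out wild type 1 or 2 gave 0.147 or 0.123. In dyt1 it differed by 0.45 (adjusted p = 0.285), with dyt1 2 at 9.16 under wild type 3 at 9.18. These neighbours were named after their values were seen. AT4G39230 and AT1G44790 also overlap a neighbour in the annotation, ATRER1A (differences of -0.27 in dyt1 and -0.76 in ams) and AT1G44780 (0.17 and -0.01), and neither neighbour was called.

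**Figure D5:**
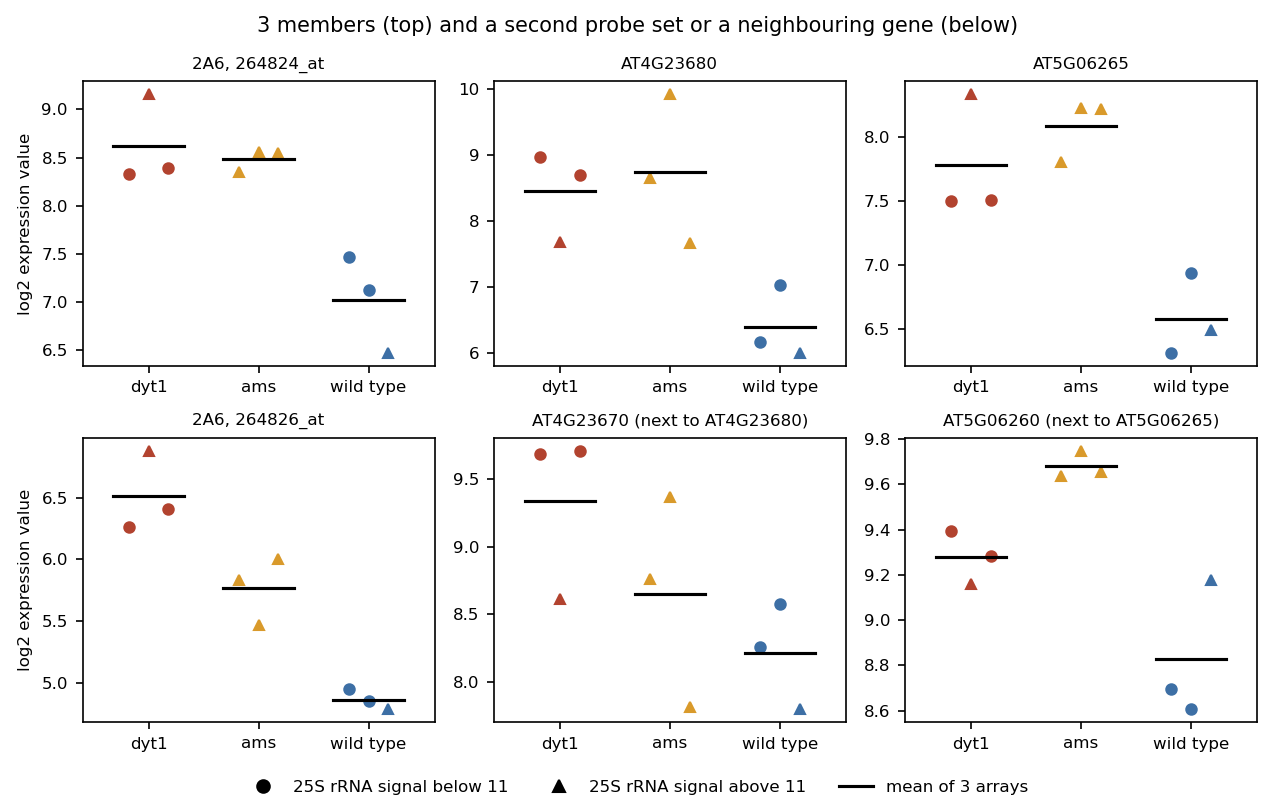
Log2 expression values (vertical axes, scaled per panel) in dyt1, ams and wild type for 3 members in the top row and, below each, the second probe set of 2A6, AT4G23670 and AT5G06260; points are arrays, triangles mark 25S signal above 11 and bars are means of 3 arrays. The second 2A6 probe set keeps all 6 mutant values above wild type, while AT4G23670 overlaps wild type in ams and AT5G06260 overlaps it in dyt1.

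The named members lay on 4 of the 5 nuclear chromosomes. There were 4 on chromosome 1, which holds 25.8% of the genes named on the array, 1 on chromosome 3, 2 on chromosome 4 and 2 on chromosome 5. None lay on chromosome 2, which holds 16.4% of those genes and also AMS. Chromosome 4, with its 2 members, holds 14.6% of them and also DYT1. So few members say little about position.

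No member was on any of the lists of cell type and stress markers. Of their 67 genes, 15 had a named probe set, too few to expect a member among them. The genes of the tapetum list did not move as 1 group. Its 3 measured genes of 15 were A9 (AT5G07230), ATA27 and AMS, and their summed level was 5.76 to 11.16 in dyt1 and 11.28 to 12.61 in ams, against 12.96 to 13.53 in wild type, on the log2 scale. A9 dominates the sum in wild type. It is specific to the tapetum and was at 11.12, 4.68 and 10.81 in dyt1 1, 2 and 3. Only dyt1 2 was under the level taken as background, so the dyt1 arrays did not agree. In ams A9 was at 9.99 to 10.44, against 12.89 to 13.07 in wild type, where it was among the brightest probe sets of the array. ATA27 was at 3.69 to 4.00 in dyt1, under the level taken as background, and at 11.99, 9.09 and 11.71 in ams, against 7.16, 7.13 and 11.59 in wild type. Its ams mean was thus 2.30 above wild type, with wild type 3 within the ams range, and limma did not call it in either mutant. AMS was at 3.96 to 5.66 in dyt1 and 9.36 to 9.61 in ams, against 7.55 to 7.93 in wild type. It is the gene mutated in ams, and its signal was higher in all 3 arrays labelled ams than in wild type; where its probes lie relative to the lesion is not known here, so this level does not check the label. Limma called AMS alone of the 3, lower in dyt1 by a log2 difference of -2.93 (adjusted p = 0.0288) and higher in ams by 1.72 (adjusted p = 0.0413). Both calls held in 3 of the 9 omissions of a single array, those of dyt1 1, dyt1 2 and wild type 3, and were lost in the other 6 (dyt1 3, wild type 1 and 2 and each ams array), with the largest adjusted p at 0.164 in dyt1 and 0.146 in ams. In whole anthers, fewer tapetal cells and less RNA per cell cannot be told apart, and the part of tapetal content in the members' levels was not tested.

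The summed levels of the meiocyte, green tissue, and carpel and ovule lists overlapped between the groups. The 4 measured meiocyte genes of 11 had a summed level of 7.80 to 9.05 in dyt1 and 7.64 to 8.73 in ams, against 7.78 to 8.92 in wild type. These ranges hide differences within groups. For each of the 4 genes, wild type 3 was the lowest wild-type array and dyt1 2 the lowest dyt1 array. In wild type 1, 2 and 3, RCK was at 6.86, 6.64 and 5.06, and ATSPO11-1 at 6.27, 6.70 and 5.37. Wild type 3 also stood apart from wild type 1 and 2 for ATA27, as given above. Whether the arrays of a group differed in meiocyte or tapetal content was not tested. The 2 measured green tissue genes of 10 were at 12.47 to 12.89 in dyt1 and 12.76 to 13.12 in ams, against 12.61 to 13.06 in wild type, and the 2 carpel and ovule genes of 6 at 8.21 to 9.33 in dyt1 and 8.30 to 8.65 in ams, against 8.17 to 8.58 in wild type. None of the genes on these 3 lists was called by limma in either mutant. In the last of them INO, an ovule gene, was at 4.67 to 5.33 in dyt1, below its 5.63 to 6.26 in wild type (adjusted p = 0.204). The single mature pollen gene of 3 was at 5.15 to 5.68 in dyt1 and 5.84 to 5.89 in ams, against 6.23 to 7.76 in wild type, without overlap (adjusted p = 0.106 in dyt1 and 0.0898 in ams). The 2 heat shock genes of 6 were at 6.14 to 11.09 in dyt1 and 5.26 to 6.70 in ams, against 6.04 to 7.27 in wild type, with the high values in dyt1 1 and 3. PDF1.2, the single measured gene of the jasmonate list, was at 5.32 to 5.64 in dyt1 and 4.46 to 4.50 in ams, against 4.52 to 4.80 in wild type. The perianth, stamen and petal, and defence and senescence lists had no named probe set.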

How the data were processed

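The authors deposited 1 table of log2 expression values for 22810 probe sets and 9 arrays, computed by RMA, per the submitters' processing notes (no version). The sources used here do not say whether all arrays were normalized together. RMA corrects background, quantile normalizes and summarises probes, so levels carry no detection call. Control probe sets (64) were not tested. The annotation given for the platform listed 1 gene for 13513 probe sets, several for 503 and did not list 8730; 13436 matched RefSeq (TAIR10.1). Coordinates are not given, since the build behind the array design is not named.

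A mean per genotype was fitted to the 9 arrays with limma 3.58.1 in R 4.3.3 (lmFit, eBayes), with Benjamini-Hochberg adjustment over 22746 probe sets, and tested on simulated data. The SE of a difference is the moderated one. The number of arrays limits the precision. The labels call the replicates biological but do not say whether they came from separate plants, so the spread may be partly technical. The members, marker lists and alternatives were chosen with earlier results of these data known. The rule for named genes took all 9 named members, the nearest 4 on either side of the threshold and list genes; UGT71B1, MTP11 and the neighbouring genes were named outside it, after their values were seen. Families by gene description and promoter motifs were not analysed here. Same-numbered samples of different genotypes had deviations from their group means that correlated between -0.01 and 0.24, so the numbers were not taken as pairs.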

Additional observations from a re-analysis of the deposited data

How the results depend on the processing

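Under the alternatives run, the median differences of the 14 members from wild type stayed between 1.08 and 1.35 in dyt1 and between 1.14 and 1.38 in ams; the choice of members fixes their sign. The number of members, 14, was 9 after a further quantile normalization, and some of these 9 were not among the 14. It was 83 and 0 at distances of 0.25 and 1 log2, and 12 to 154 with 1 array left out. Without both wild type 3 and dyt1 2 (chosen after seeing the data) it was 306. Members called in dyt1, 0, numbered 1 with a floor at the 20th percentile, 6 with library set (25S above or below 11) as a block, 14 with array weights, 13 without wild type 3 and dyt1 2, and 0 to 8 with 1 array left out. In ams, 12 became 7 with that floor, 7 with the replicate number as a block, and 1 to 13 with 1 array left out. In dyt1 against ams, 0 became 2 with array weights and stayed 0 with each array left out.

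Over all probe sets, the 17 called higher in dyt1 were 10 with arrays centred, 11 after quantile normalization, 54 with the floor, 11 among probe sets above the arrays' lower quartile, 4750 with array weights, 3 with only the 2 groups compared, 130 with the library set block, 2215 without wild type 3 and dyt1 2, and 1 to 517 with 1 array left out. The replicate block gave 13. In ams, 558 became 3954 with array weights, 3693 without those 2 arrays and 217 to 1866 with 1 array left out, and the replicate block gave 392. AT5G06260 in ams had adjusted p values of 0.0700 with the replicate block, 0.0614 with only the 2 groups compared and 0.0942 with the library set block. The causes were not tested, and slide and scan date, not used here, gave no block. Background correction could not be varied, and dim levels cannot be told from background.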
